A study of Mus musculus with 4 samples.

Results

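The cytosolic ribosomal protein genes of the mouse were followed through 4 maps of open chromatin as a group that dividing cells keep in use. The group was taken by name: protein-coding genes whose symbol is Rpl or Rps with a number and an optional letter or l ending, plus Rplp0, Rplp1, Rplp2 and Rpsa, without Rps6k kinase genes and -ps pseudogenes. This rule gave 82 of the 21631 protein-coding genes in the RefSeq gene table (GRCm38), of which 48 encode proteins of the large subunit, 31 proteins of the small subunit and 3 proteins of the ribosomal stalk, on 19 chromosomes and with 4 genes on X. The rule uses names and not measured values.

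ATAC-seq, in which a transposase cuts accessible DNA, had been applied to CD4 T cells carrying the SMARTA T cell receptor transgene. TOX-deficient (KO) and wild-type (WT) cells, naive when injected, went into mice bearing B16-GP61 tumors that had been given cytoxan, and were recovered from the tumor-draining lymph node (tdLN) 11 days later. Libraries KO-1 and KO-2 are of KO cells from a Ly5.1+ Ly5.2- gate low in CD39, LAG3 and PD1, and libraries WT-1 and WT-2 are of WT cells from a Ly5.1+ Ly5.2+ gate high in CD39, LAG3 and PD1. Where a genotype has a pair of values, that of library 1 stands before that of library 2. Genotype, congenic marker and sort gate changed together, so they cannot be told apart in any difference between KO and WT libraries. The labels do not say how Tox was inactivated or whether the 2 libraries of a genotype came from separate animals.

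The ribosome is built from RNA and a large set of proteins, most of them needed in equal amounts by every cell that makes protein. The large subunit forms peptide bonds, the small subunit reads the message, and the stalk proteins Rplp0, Rplp1 and Rplp2 recruit elongation factors. T cells raise ribosome production when they are activated. Many of these genes begin transcripts with a C followed by a run of pyrimidines, the TOP sequence that couples their translation to growth signals. A few members are paralogs with a restricted use in the mouse, such as Rpl3l in striated muscle and Rpl10l and Rpl39l in the testis.

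The peak lists held 43078 and 61773 peaks in KO and 56852 and 61489 in WT, and read numbers are not given. Peaks within 1 kb of the upper end of Tox (chromosome 4, 6686353 to 6991557) were listed in neither KO library and in both WT libraries, with fold enrichments of 6.57 and 7.12. All 10 T cell marker genes examined had a peak at a gene end in every library. Of 10 B cell markers, 2 and 3 had one in the KO libraries, against all 10 in either WT library. The part of B cell chromatin in any KO and WT difference below was not tested. Peaks of every strength are missing from the numbering of the lists, so a peak absent from a list can be one that was removed.

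Nearly all ribosomal protein genes had an accessible end in every library. A gene-end peak, meaning a listed peak overlapping the 1 kb on either side of an end of the annotated gene interval, was found for 76 and 77 members in KO and for 77 and 77 in WT. The mean was 76.5 ± 0.707 members in KO and 77.0 ± 0.0 in WT (SD, n = 2 each). In all 4 libraries together 76 of 82 members (92.7%) had such a peak, against 50.0% of all protein-coding genes. No member had a gene-end peak in both KO and neither WT library (0.254% of all genes did), and none had one in both WT and neither KO library (1.65% of all genes did). Without KO-2, 1 member, Rpl17, counted as present in WT and absent in KO.

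By role, 44 of 48 large-subunit genes, 29 of 31 small-subunit genes and 3 of 3 stalk genes had a gene-end peak in every library. Of the other 6 members, Rpl17 lacked one in KO-1 alone. The remaining 5 members (6.10%, against 40.1% of all genes) had none in any library, namely Rps2, Rps25, Rpl10l, Rpl39l and Rpl32l. Measured from annotated transcription starts, which the promoter table gives for 62 members, 57 (91.9%) had a peak within 1 kb of a start in every library, against 51.7% of the 17274 genes with an annotated start. The other 5 were Rps25, Rpl10l, Rpl39l, Rpl32l and Rpl3l.

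Among members with an annotated start, promoter sequences are shown for some high-ranking peaks, some lower-ranking peaks and some starts with no listed peak nearby. Each is RefSeq sequence on GRCm38.p6, written 5′ to 3′ from 120 bases before the annotated start to 15 bases from it, 135 bases in all. Rpl27 and Rpl31 had starts in the top part of every peak list, Rps15a and Rpl35 were low among open members, and Rps25, Rpl39l and Rpl10l had no listed peak nearby. Capitals mark matches on either strand to CCGGAA, the core bound by ETS family factors, and to GGGCGG, the core bound by the SP1 family, and a run of pyrimidines that begins with C at the start.
Rpl27, chr11:101442125-101442259, plus strand: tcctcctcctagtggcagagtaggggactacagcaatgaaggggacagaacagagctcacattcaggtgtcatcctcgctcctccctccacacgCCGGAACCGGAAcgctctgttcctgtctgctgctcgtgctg
Rpl31, chr1:39367731-39367865, plus strand: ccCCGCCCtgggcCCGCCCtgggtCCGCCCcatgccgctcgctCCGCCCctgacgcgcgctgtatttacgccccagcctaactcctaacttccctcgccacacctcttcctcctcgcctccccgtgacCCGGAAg
Rps15a, chr7:118116133-118116267, minus strand: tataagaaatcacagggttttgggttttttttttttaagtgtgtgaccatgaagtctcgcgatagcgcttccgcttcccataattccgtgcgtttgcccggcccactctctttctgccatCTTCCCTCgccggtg
Rpl35, chr2:39005117-39005251, minus strand: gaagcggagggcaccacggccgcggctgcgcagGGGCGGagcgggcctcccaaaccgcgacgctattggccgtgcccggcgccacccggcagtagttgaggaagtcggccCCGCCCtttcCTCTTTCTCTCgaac
Rps25, chr9:44407594-44407728, plus strand: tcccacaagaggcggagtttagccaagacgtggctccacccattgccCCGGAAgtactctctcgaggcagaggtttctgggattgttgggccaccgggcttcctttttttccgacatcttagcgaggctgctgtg
Rpl39l, chr16:10170108-10170242, plus strand: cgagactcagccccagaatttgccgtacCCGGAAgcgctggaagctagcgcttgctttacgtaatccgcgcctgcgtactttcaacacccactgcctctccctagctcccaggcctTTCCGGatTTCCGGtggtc
Rpl10l, chr12:66284387-66284521, minus strand: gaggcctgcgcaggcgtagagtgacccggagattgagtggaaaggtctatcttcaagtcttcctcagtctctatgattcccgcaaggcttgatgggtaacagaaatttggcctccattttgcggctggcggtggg
The Rps25 and Rpl39l windows hold CCGGAA, as the Rpl27 and Rpl31 windows do. The 135 bases placed likewise at Rps26 and Rplp0, also among the highest members, hold none of the marked matches. A match or its absence in these letters was not related to peak strength by any test.

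Strength was read as the percentile of a peak's fold enrichment within its own library's list, taking the strongest gene-end peak of each gene. This fold is the authors' ratio of the peak over its local background. The median of the members was at percentile 90.4 and 92.1 in KO and 92.2 and 93.6 in WT. That of all protein-coding genes with a gene-end peak was at 86.2 and 88.5 in KO and 88.7 and 89.5 in WT. The members' median lay above that of all genes in every library, and this is a description without a test. Per genotype the members' medians averaged 91.3 ± 1.20 in KO and 92.9 ± 1.03 in WT (SD, n = 2 each). The lists differ in length, and a percentile moves with the number of weak peaks listed.

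The advantage was seen among genes with a peak in all 4 libraries as well. There the medians of 76 members were 90.4 and 92.1 in KO and 92.0 and 93.7 in WT, against 86.9 and 89.8 in KO and 90.03 and 91.0 in WT for 10810 genes. A percentile of 90 or more was reached by 53.9% and 67.5% of the members' peaks in KO and by 68.8% and 75.3% in WT. For all genes these shares were 38.3% and 45.2% in KO and 45.5% and 48.1% in WT. Peaks of members were little wider than others, with median widths of 946.5 and 955 bp in KO and 992 and 1013 bp in WT, against 912 and 927 bp in KO and 953.5 and 979 bp in WT for all genes. At the level of single genes, 38 of 76 members lay at percentile 90 or above in every library. At percentile 70 or above in every library lay 75. The same counts were not made over all genes. The lower quartile of all genes with a gene-end peak was at 72.7 and 75.8 in KO and 75.5 and 76.3 in WT.

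**Figure D1:**
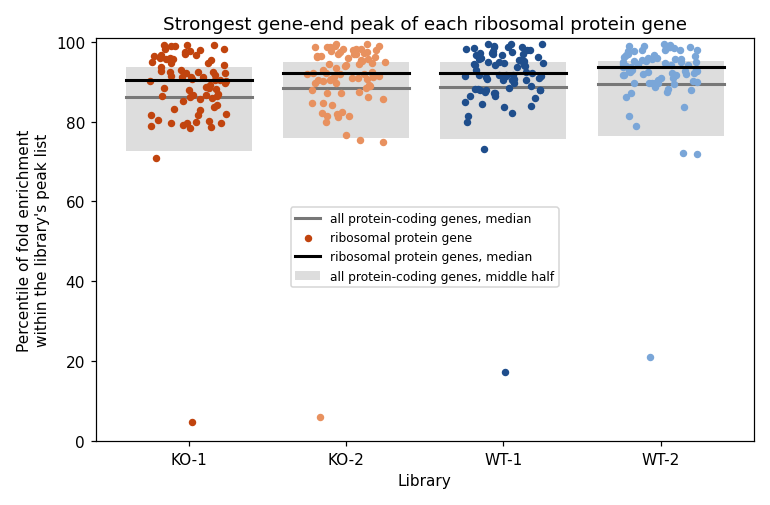
Percentile of the fold enrichment of each ribosomal protein gene's strongest gene-end peak within its library's list (points), with the median of these genes (black line), and the median and interquartile range of all protein-coding genes (grey), for both KO libraries and then both WT libraries. The black line is above the grey line in each library, at 90.4 and 92.1 in KO and 92.2 and 93.6 in WT, and the low point of each library is Rpl19.

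The stalk genes ranged from the top of the group to its middle. Rplp0 (chromosome 5, 115559467 to 115563729), which anchors the stalk to the large subunit, was at percentile 97.8 and 99.0 in KO and 98.7 and 98.8 in WT. Rplp1, an acidic stalk protein, was at 95.8 and 96.2 in KO and 92.9 and 94.9 in WT, so both KO values were above both WT values. Rplp2, its partner, was at 88.7 and 92.2 in KO and 91.8 and 92.2 in WT, with overlapping genotypes.

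Large-subunit genes had medians of 88.8 and 91.1 in KO and 91.4 and 92.5 in WT. Rpl27 (chromosome 11, 101442245 to 101445596), a structural protein of that subunit, was highest of all members by mean percentile, with folds of 13.6 and 20.2 in KO and 18.2 and 17.6 in WT. Its percentiles of 99.0 and 99.4 in KO and 99.4 and 98.9 in WT overlapped between genotypes. Rpl31, which lies at the rim of the exit tunnel for the new peptide, was at 98.2 and 98.9 in KO and 98.4 and 99.4 in WT.

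Rpl5 and Rpl11 form a particle with the ribosomal 5S RNA and can bind Mdm2, the ubiquitin ligase for p53. Rpl11 was high and even, at 96.6 and 98.1 in KO and 97.8 and 98.7 in WT. Rpl5 was uneven, at 88.0 and 97.3 in KO and 95.9 and 92.2 in WT, the WT values lying between the KO values. Rpl3, a protein near the peptidyl transferase centre, was at 90.1 and 92.0 in KO and 91.4 and 95.8 in WT.

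Small-subunit genes had medians of 92.2 and 93.4 in KO and 94.2 and 94.2 in WT. These were above the large-subunit medians in each library, with no test. Rps26 (chromosome 10, 128624529 to 128626506), at the exit of the message from the ribosome, had folds of 13.8 and 20.8 in KO and 16.4 and 17.0 in WT. Its percentiles were 99.2 and 99.6 in KO and 98.1 and 98.5 in WT, both KO values lying above both WT values.

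Rps6, the subunit protein that S6 kinases phosphorylate, was at 97.9 and 97.6 in KO and 98.1 and 95.8 in WT. Rpsa, known also as the laminin receptor precursor, was at 96.6 and 90.6 in KO and 94.2 and 94.8 in WT. Rps19 and Rps14 are genes whose loss of 1 copy causes or contributes to anemia in humans. Rps14 was at 92.6 and 95.0 in KO and 94.9 and 95.2 in WT, and Rps19 was lower, at 85.8 and 90.6 in KO and 90.7 and 91.7 in WT. In each of these genes other than Rps19 the genotypes overlapped.

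Rps15a, Rpl7 and Rpl35 stood toward the low end of the open genes. Rps15a, a small-subunit protein, was at 82.8 and 76.7 in KO and 80.0 and 71.8 in WT. Low rank did not mean absence, since each had a peak in all 4 lists. Rpl7, a large-subunit protein, was at 78.4 and 75.3 in KO and 83.8 and 78.8 in WT. Rpl35, at the exit tunnel, was at 79.8 and 81.4 in KO and 82.1 and 81.4 in WT. The 4 members on X (Rpl10, Rpl36a, Rpl39 and Rps4x) had medians of 83.5 and 88.1 in KO and 88.0 and 89.3 in WT, below those of the whole group. Rpl36a spread most of all members between libraries, at 81.7 and 98.8 in KO and 88.1 and 89.8 in WT.

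**Figure D2:**
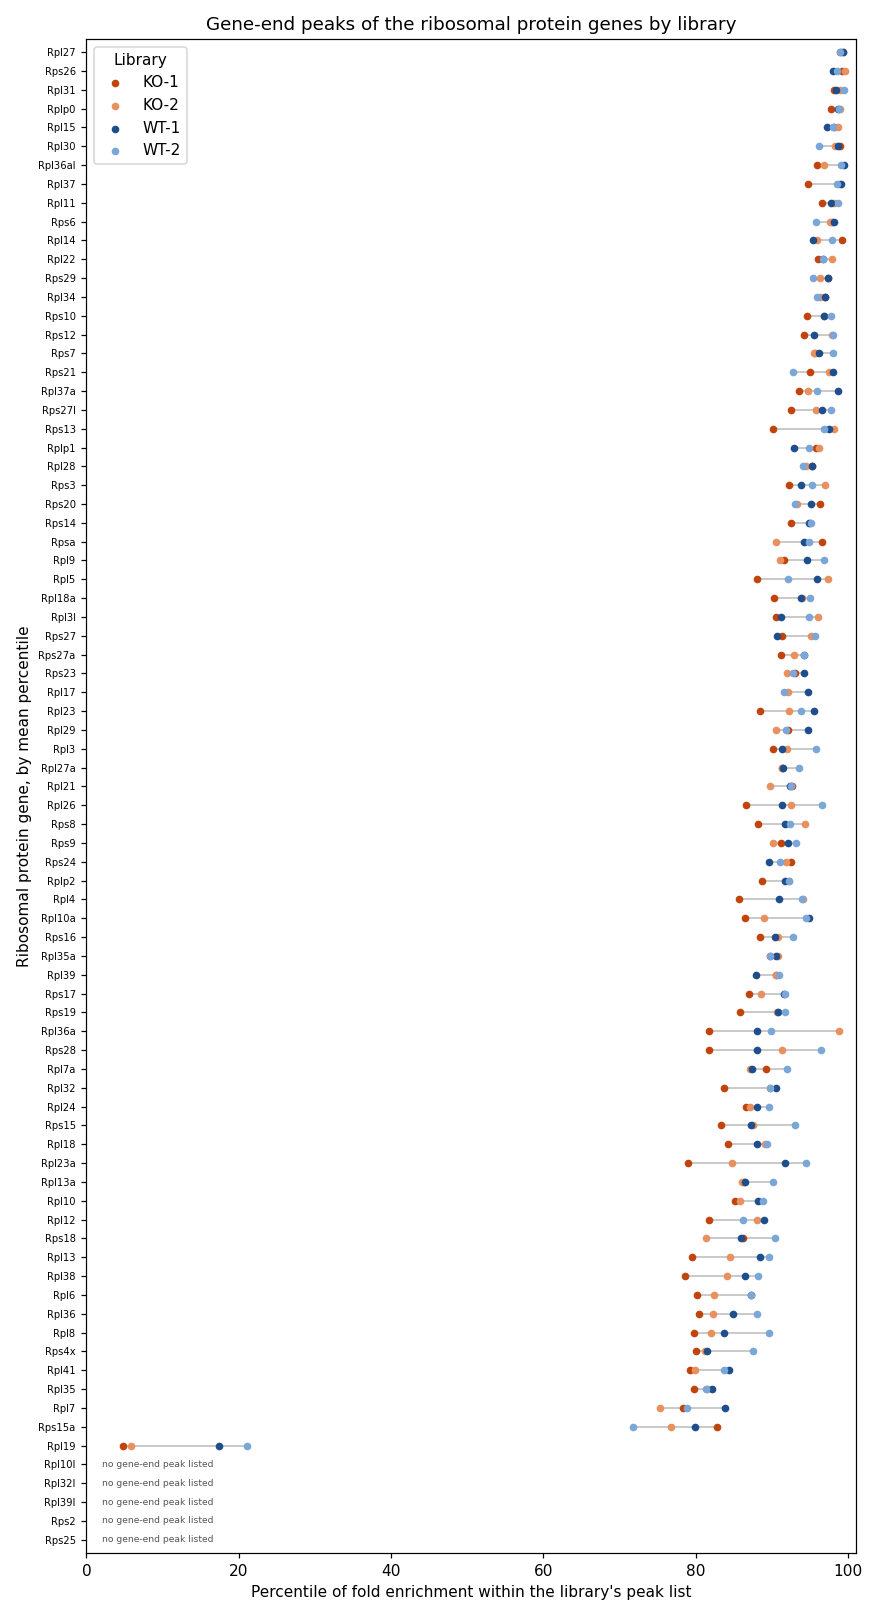
Percentile of fold enrichment of the strongest gene-end peak for the ribosomal protein genes reported singly (vertical axis, by mean percentile), with one point for each of the KO and WT libraries and a line over their range. Rpl27 stands at the top with all libraries between 98.9 and 99.4, Rpl36a has the longest line at 17.1 points, and 5 genes have no gene-end peak listed.

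Paralogs split by their known use. The widely used copies were open: Rps27l, an inducible relative of Rps27, was at 92.5 and 95.7 in KO and 96.6 and 97.7 in WT, and Rps27 itself at 91.3 and 95.1 in KO and 90.6 and 95.6 in WT. Rpl36al was at 96.0 and 96.8 in KO and 99.5 and 99.0 in WT, above its X-linked relative Rpl36a in 3 of the 4 libraries. The region of the Rpl36al peak was assigned to Mgat2, which has a start on the opposite strand within 1 kb. The testis paralogs had no peak nearby, while their X-linked relatives did. Rpl10 was at 85.2 and 85.8 in KO and 88.1 and 88.8 in WT, and the nearest listed peak to Rpl10l (chromosome 12, 66283379 to 66284401) was 173950 and 305467 bp away in KO and 624830 and 275741 bp away in WT. Rpl39 was at 90.5 and 90.5 in KO and 87.9 and 90.9 in WT, and the nearest peak to Rpl39l (chromosome 16, 10170197 to 10174911) was 18259 and 97497 bp away in KO and 97464 and 97420 bp away in WT. Rpl32l (chromosome 10, 20208439 to 20209030) had its nearest peak at 10459 and 10294 bp in KO and 2841 and 3066 bp in WT.

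The muscle paralog Rpl3l (chromosome 17, 24727826 to 24736143) counted as open only through its far end. The peak there had folds of 9.86 and 16.4 in KO and 12.3 and 14.3 in WT, and its region was assigned to the neighbouring gene Msrb1, a methionine sulfoxide reductase. No library listed a peak within 1 kb of either annotated start of Rpl3l, at 24727826 and 24732685.

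Several exceptions lay in how the intervals are drawn. The interval of Rps2 (chromosome 17, 24718121 to 24721927), a small-subunit protein at the entry of the message, begins well before its annotated start at 24720063. A peak covered that start with folds of 10.9 and 13.4 in KO and 11.1 and 12.3 in WT, at percentiles 93.8 and 90.8 in KO and 88.5 and 91.1 in WT. Rps2 was therefore open at its start in every library although it has no gene-end peak. Rpl19 (chromosome 11, 98022003 to 98030493) had only weak peaks near its ends, at percentiles 4.83 and 5.86 in KO and 17.4 and 21.1 in WT. Its annotated starts at 98026710 and 98026924 carried a peak at percentiles 86.9 and 83.9 in KO and 89.8 and 85.8 in WT, so the low values of Rpl19 belong to the interval ends and not to its starts. The strongest gene-end peaks of Rpl18, Rpl4 and Rpl36 lay in regions assigned to Sphk2, Snapc5 and Micos13. That of Rpl18 was at 84.3 and 89.1 in KO and 88.1 and 89.4 in WT. The peak at its annotated start was at 80.0 and 72.2 in KO and 77.3 and 81.8 in WT. From annotated starts alone the members' medians were 90.5 and 91.8 in KO and 91.8 and 93.2 in WT.

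Rpl17 (chromosome 18, 74998978 to 75003381) had the same internal peak in all libraries. It began 1147 bp inside the interval in KO-1, past the 1 kb limit, against 934 bp in KO-2 and 953 and 970 bp in WT. Its folds were 9.02 and 14.1 in KO and 14.1 and 12.5 in WT. Counting peaks anywhere inside a gene or within 1 kb of it, 78 members had a peak in every library. This wider count was not made over all genes, and their share for gene ends does not apply to it. By the same count 4 members had none in any library, Rps25, Rpl10l, Rpl39l and Rpl32l.

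Rps25 (chromosome 9, 44407714 to 44410406) was the one broadly used member among those 4. It encodes a small-subunit protein known for a role in initiation at viral internal entry sites. No library listed a peak within 3 kb, and the nearest was 7119 and 6986 bp away in KO and 7182 and 7241 bp away in WT. Whether a peak there was among those removed from the lists was not tested.

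**Figure D3:**
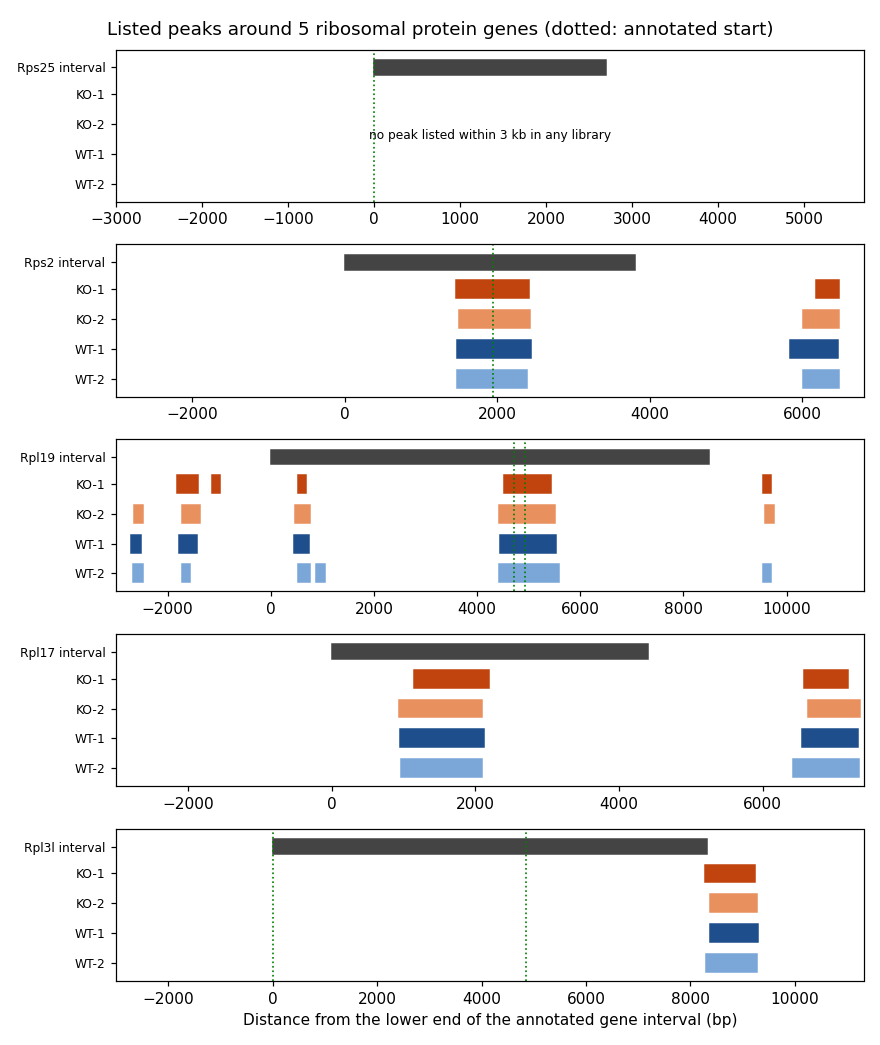
Listed peaks (colored bars) around Rps25, Rps2, Rpl19, Rpl17 and Rpl3l in each KO and WT library, by distance in bp from the lower end of the annotated gene interval (dark bar), with annotated starts dotted. Rps25 has no listed peak within 3 kb, Rps2 and Rpl19 have peaks over their internal starts, Rpl17 has a peak whose edge crosses 1 kb only in KO-1, and the peak of Rpl3l lies at its far end.

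Between genotypes, WT percentiles were higher more often than KO percentiles, among the members and among all genes. For each member with a gene-end peak in all 4 libraries the percentiles of KO and WT were compared, and a gene was counted when both values of one genotype were above both of the other. Both KO values were higher at 4 of 76 members (5.26%, against 8.21% of all such genes), and both WT values were higher at 26 (34.2%, against 32.3% of all such genes). The values overlapped at the other 46. With each list cut to its 20000 strongest peaks the counts were 5 for KO and 18 for WT of 75 members (6.67% and 24.0%), against 13.3% and 20.7% of all such genes. With −log10 q of at least 5 they were 2 for KO and 42 for WT (2.67% and 56.0%), against 4.51% and 46.9%. With at least 10 they were 2 and 40 (2.67% and 53.3%), against 4.10% and 45.6%. Over the full lists, the median difference, KO minus WT, was -1.55 percentile points for the members and -1.55 for all genes. With 2 libraries against 2, an exact two-sided permutation test cannot give a p below 0.33, so no single gene was tested.

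The 4 members with higher KO values were Rplp1, Rps26, Rps24 and Rpl15, by small margins. Rps24, a small-subunit protein, was at 92.5 and 91.8 in KO and 89.6 and 91.0 in WT, a mean difference of 1.87 points. Rpl15, of the large subunit, was at 98.2 and 98.7 in KO and 97.3 and 98.0 in WT. Gaps in the other direction were larger.

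Apart from Rpl19, the largest was at Rpl23a (chromosome 11, 78180935 to 78183584), a tunnel-exit protein, which was at 79.0 and 84.8 in KO and 91.7 and 94.4 in WT, a mean difference of -11.2 points. Its folds were 6.88 and 10.9 in KO and 12.6 and 14.0 in WT. Next were Rpl13, at 79.6 and 84.6 in KO and 88.5 and 89.7 in WT, and Rpl10a, at 86.5 and 88.9 in KO and 94.8 and 94.4 in WT. Rpl6 was at 80.1 and 82.4 in KO and 87.2 and 87.2 in WT. These all encode large-subunit proteins, and at each of them KO-1, which has the shortest list, held the lowest value.

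The median range of a member over the 4 libraries was 4.50 percentile points, against 6.22 for all 10810 genes with a gene-end peak in each. A range of 5 points or less was found at 43 of 76 members (56.6%), against 40.1% of these genes. Across the 76 members, which share the libraries, Spearman's rho between percentiles was 0.81 for KO-1 with KO-2 and 0.85 for WT-1 with WT-2, and 0.81 to 0.87 for pairs of a KO and a WT library. Over all 10810 genes it was higher, at 0.88 for KO-1 with KO-2, 0.94 for WT-1 with WT-2 and 0.89 to 0.91 for pairs of a KO and a WT library. The order of the members was thus about as alike between genotypes as within them, which is a description across genes.

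Summits of the peaks sat at the starts. For the 57 members with a peak at an annotated start, the median summit was at -34 and -21 bp in KO and -26 and -29 bp in WT, a negative value being upstream. Within 150 bp of the start lay 50 and 49 summits in KO (87.7% and 86.0%) and 53 and 49 in WT (93.0% and 86.0%). The shares for all genes were 73.1% and 72.7% in KO and 72.9% and 72.4% in WT. Between libraries the summit of a member moved little, with a median range of 19 bp against 31 bp for all genes. It stayed within 100 bp at 49 of 57 members (86.0%), against 80.2% of all genes.

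Single genes show how fixed these positions were. Positions are from the nearest annotated start where a gene has several. The summit of Rpl34, a large-subunit gene, was 3 bp downstream of such a start in all 4 libraries, and that of Rpl22, of the same subunit, was 103 bp downstream of its internal start, at 152325726 on chromosome 4, in all 4. Rps26 had its summit upstream, at -320 and -327 bp in KO and -327 and -327 bp in WT. Rps23, a small-subunit gene of the decoding centre, had its summit at separate positions, 26 and -247 bp in KO and 25 and -252 bp in WT, which pairs KO-1 with WT-1 and KO-2 with WT-2. Rplp2 did likewise, at -34 and -345 bp in KO and -60 and -347 bp in WT. Other members did not pair by number. Rps21 was at -55 and -103 bp in KO and -109 and -56 bp in WT. Rpl27a was at -158 and -119 bp in KO and -26 and -31 bp in WT.

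**Figure D4:**
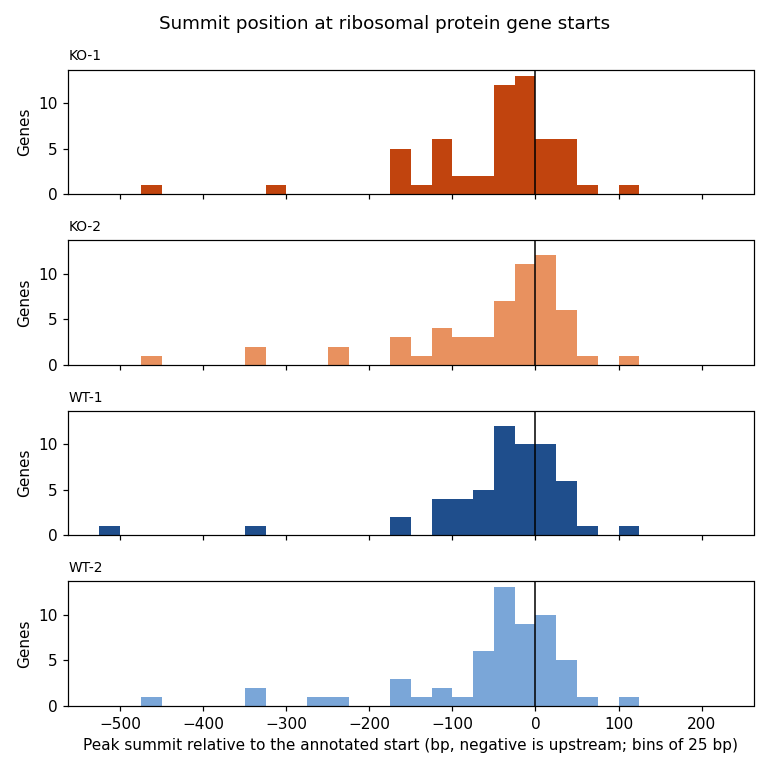
Number of ribosomal protein genes by position of the peak summit relative to the annotated start, in bins of 25 bp, with the KO libraries above the WT libraries and negative positions upstream. Each library has 49 to 53 of 57 summits within 150 bp of the start, with a few farther upstream.

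The promoter windows of the 62 members with an annotated start, 250 bases before to 50 after it, were searched on both strands for short motifs. CCGGAA (ETS) was in 33 members (53.2%), against 33.7% of genes with a peak at the start in every library and 21.2% of all genes with an annotated start. GGGCGG (SP1) was in 59.7% of members, against 71.8% of genes open at the start in every library and 49.8% of all genes. Members thus held the ETS core more often, and the SP1 core less often, than genes open in every library, as plain shares of these windows. Of the members holding the ETS core, 31 of 33 had a peak at the start in every library, the exceptions being Rpl39l and Rps25. That is near the share of all 62 members, of which 57 (91.9%) had one.

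The palindrome CTCGCGAG was in 7 members (11.3%), against 2.40% of genes open at the start and 1.42% of all genes. These were Rpl10a, Rpl12, Rpl26, Rpl27a, Rps6, Rps19 and Rps28, all with a peak at the start in every library. Such a peak was found at 91.9% of the 62 members. AAGATGGCG (YY1) was in 4.84% of members, against 3.78% of open and 2.15% of all genes, and GCATGCGC (NRF1) in 4.84%, against 6.44% of open and 3.98% of all genes. Longer forms of the palindrome and of the NRF1 motif, each with 2 more bases, were in 9.68% and 3.23% of members, against 1.32% and 2.57% of open and 0.764% and 1.49% of all genes. TATAAA was in 7 members (11.3%), against 714 of 8927 open genes and 14.9% of all genes, and CACGTG, the E box that Myc can bind, in 9.68% of members, against 12.3% of open and 9.02% of all genes.

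A TOP start, counted where the annotated first base is C and at least 4 pyrimidines follow, was found at 14 of 62 members (22.6%), against 2.88% of genes open at the start and 2.70% of all genes. This count moves with the exact base chosen as the start. The 14 included Rps15a and Rpl35, shown above, and 13 of them had a peak at the start in every library, the exception being Rpl32l. Among all 62 members the share with such a peak was 91.9%. The median GC content of members' windows was 56.8%, against 61.3% for open and 56.7% for all genes. Their median ratio of observed to expected CpG was 0.863, against 0.774 for open and 0.571 for all genes.

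**Figure D5:**
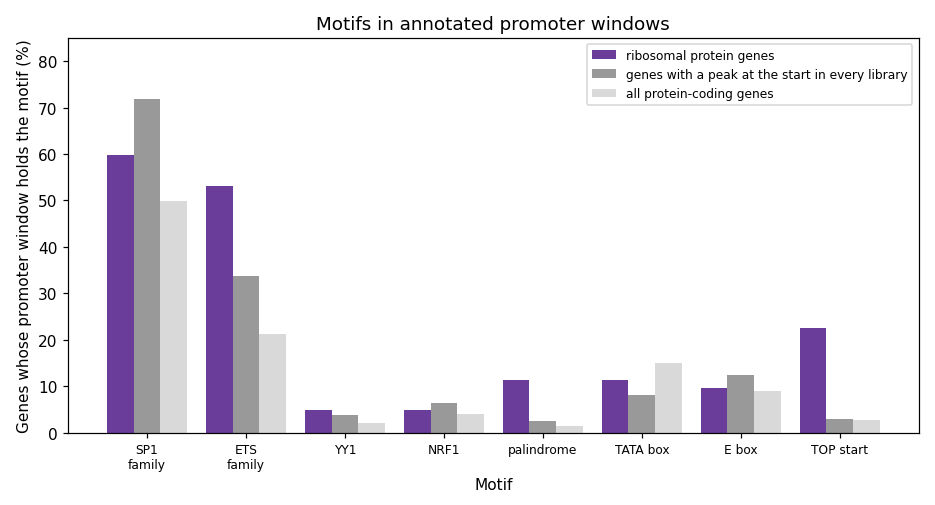
Share of promoter windows that hold each motif among 62 ribosomal protein genes (purple), genes with a peak at the start in every library (mid grey) and all protein-coding genes with an annotated start (light grey). The ETS core (53.2%), the palindrome (11.3%) and the TOP start (22.6%) are more frequent in the ribosomal protein genes than in the other groups, and the SP1 core (59.7%) lies between them.

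Neighbourhoods of the genes were compact. The median member interval was 3169.5 bp, against 17329 bp for all genes. Of the 21631 protein-coding genes, 372 held annotated small nucleolar RNA genes, which guide modification of ribosomal RNA. Among them were 29 of the 82 members, with 58 such genes inside. Gene-end peaks of these hosts had medians of 88.7 and 91.7 in KO and 91.7 and 92.6 in WT, against 91.6 and 92.9 in KO and 94.2 and 94.4 in WT for members without one. A start of another protein-coding gene on the opposite strand within 1 kb was found at 9 of 62 members (14.5%), against 9.73% of all genes, among them Rpl9 with Lias, Rps18 with Vps52 and Rpl7a with Med22. All 9 had gene-end peaks in each library, as did 92.7% of all members. A separate peak at the far end was present in every library at 7 of 62 members (11.3%), against 5.55% of all genes.

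Of the 97394 merged regions, 200 were assigned to members as the nearest protein-coding gene within 100 kb. Of these, 112 (56.0%) had a peak in all 4 libraries, against 27.6% of all regions. Members had a median of 2 regions, and 17 lay around Rplp1. No region was assigned to 11 members, but 7 of these had a gene-end peak in every library whose region went to a neighbour, such as Mgat2 beside Rpl36al and Pidd1 beside Rplp2. Within 1 kb of a member's end lay 87 regions (43.5%), and 71 of these (81.6%) were present in every library, against 67.2% of all regions near an end of their gene.

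Regions present in one genotype alone lay away from the gene ends. Near the ends there was no KO-only region (a peak in both KO and neither WT library, 0.813% of all such regions) and no WT-only region (4.75% of all such regions). Beyond 1 kb lay 113 regions, of which 41 (36.3%) were in every library, against 23.4% of all such regions. There, 1 region was KO-only (0.885%, against 2.12%) and 8 were WT-only (7.08%, against 10.8%). Of all regions in the lists 1.78% were KO-only and 8.80% WT-only. The counts rest on single libraries. KO-only regions numbered 17 without KO-1, 13 without KO-2, 2 without WT-1 and 6 without WT-2. WT-only regions numbered 10 without KO-1, 22 without KO-2, 20 without WT-1 and 16 without WT-2. Leaving out a library loosens both classes for every region. The shares over all regions were not recomputed for these settings, so the percentages above do not apply to these counts.

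The KO-only region was on chromosome 9, 61813127 to 61813570, with KO folds of 2.65 and 5.12, and its midpoint was 99935 bp from Rplp1. The 8 WT-only regions were spread over 7 genes (Rps26, Rpl12, Rps20, Rpl11, Rpl6, Rplp1 and Rpl14). Their peaks ranged from percentile 0.372 to 65.4 in the WT lists. The highest was near Rps20, a small-subunit gene, on chromosome 4, 3812504 to 3812796, with WT folds of 4.13 and 5.23. These were weaker than the median gene-end fold of the members, 9.81 and 14.1 in KO and 12.8 and 13.6 in WT.

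Most of the genes examined that work with the ribosome had similar values. Among 6 ribosomal protein genes whose names fall outside the form, all had a gene-end peak in every library. Of these, Rpl22l1, a paralog of Rpl22, was at 99.1 and 99.7 in KO and 99.1 and 99.7 in WT. Fau, a fusion of a ubiquitin-like protein with a small-subunit protein, was at 77.8 and 79.9 in KO and 78.7 and 83.0 in WT.

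Of 21 translation factor genes, 20 had a gene-end peak in every library (Eef2 had none in any), and of 25 ribosome assembly genes, 23 did. Among the assembly genes, Tsr1 had one in WT-2 alone and Ubtf had none in any library. Whether peaks at Eef2, Tsr1 and Ubtf were among those removed from the lists was not tested. Translation factors had medians of 91.6 and 92.1 in KO and 93.4 and 92.2 in WT, and assembly genes of 90.8 and 93.1 in KO and 94.2 and 94.1 in WT. Bop1, an assembly factor of the large subunit, was at 99.6 and 99.9 in KO and 99.0 and 99.9 in WT. Nop10, another assembly gene, was low, at 46.5 and 38.6 in KO and 47.4 and 53.4 in WT. Myc, the transcription factor that drives ribosome production, was low, at 8.16 and 38.1 in KO and 46.9 and 44.4 in WT. The Myc percentiles did not overlap between genotypes, WT above KO, as at 32.3% of all genes with a gene-end peak in every library. The folds of Myc were 2.71 and 3.55 in KO and 3.92 and 3.55 in WT, nearly equal in KO-2 and WT-2.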

How the data were processed

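ATAC-seq peaks had been listed separately for each of 4 libraries (2 KO, 2 WT). MACS2, BWA, Picard, SAMtools and deepTools are named, with the builds mm10 and GRCm38 (the same assembly), per the submitters' processing notes. Their versions and settings, read shifting and filters were not given in the sources used here. The cells had been frozen after sorting and were transposed after thawing, per the labels' protocols. The deposited lists had 10 columns without a header. Fold enrichment, as deposited, is the ratio of a peak over local background, and deposited −log10 values of p and q score each peak against it. All are the authors' values and were used to describe peaks and to rank or filter them inside each list. The deposited summit offset gave summit positions. Read depth is unknown. From the numbering, 1603 and 1681 peaks were missing in KO and 1758 and 1900 in WT, of which 231 and 251 in KO and 237 and 256 in WT were in the strongest 10%.

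Peaks overlapping by 1 bp were merged, and regions went to the protein-coding gene interval nearest to their midpoint within 100 kb. Gene-end occupancy used a 1 kb window at both ends of the RefSeq interval, and the strongest peak by fold was kept. Genes and promoters were from RefSeq tables on GRCm38.p6. The members and gene lists were chosen with earlier results of these data known. The CTCGCGAG and GCATGCGC motifs are shorter forms of planned ones, chosen after the longer had been counted. The genes named are all members without a gene-end peak in every library, the highest and lowest by mean percentile, those with the largest differences between genotypes and those of known role, apart from 2 members that are counted but not reported singly here. Alternatives were the window, stricter −log10 q, equal list length, percentiles of −log10 p, a 10 kb assignment limit and each library left out. No test was made over members. Scripts used Python 3.11.15 with numpy 2.4.6, pandas 2.3.3 and matplotlib 3.10.9, and were tested on simulated peaks.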

Additional observations from a re-analysis of the deposited data

How the results depend on the processing

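Of 125 recomputed values, 93 stayed close to those reported and 32 moved. The count of members with a gene-end peak in every library stayed between 72 and 78 over the windows, peak filters and libraries left out. It was 57 of 62 from annotated starts and 82 of 88 with the genes outside the name form. The members' medians of the percentile moved when weak peaks were left out. With −log10 q of at least 5 they were 84 and 86.66 in KO and 88.58 and 90.43 in WT, with at least 10 they were 76.74 and 82.04 in KO and 84.08 and 86.94 in WT, and among the 20000 strongest peaks of each list 79.63 and 75.82 in KO and 78.01 and 80.67 in WT. By the percentile of −log10 p the KO-1 median was 91.9. Medians of all genes were not recomputed at these settings, so the place of the members above all genes is not shown there. KO-only regions numbered 2 at −log10 q of 10, 5 among the 20000 strongest peaks and 0 within 10 kb, and 2 to 17 with 1 library left out. WT-only regions numbered 2, 5 and 3 under the same settings, and 10 to 22 with 1 library left out. The shares over all regions were not recomputed under these settings. Members open in both WT and neither KO library numbered 1 with a 500 bp window (Rpl38) and 0 to 1 with 1 library left out. All 4 libraries listed a peak at the annotated start of Rpl38. The peak began at 114668345 and 114668319 in KO and at 114668303 and 114668319 in WT. The 500 bp window from the lower gene end, at 114667818, reached this peak in WT-1 alone. WT-2 counted through a separate peak of fold 2.39, at percentile 3.19. Members with both KO percentiles higher numbered 2 at −log10 q of 5 (all genes 4.51%), 2 at 10 (4.10%) and 5 among the 20000 strongest peaks (13.3%). Those with both WT percentiles higher numbered 42 (all genes 46.9%), 40 (45.6%) and 18 (20.7%). These settings were chosen for these counts after seeing the data. The cause of these shifts was not tested, beyond the shorter lists that the filters leave.

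No paired analysis was possible because these results come from no test, to which a replicate block would be added. As values within replicate numbers, the difference of the medians, KO minus WT, was -1.73 for number 1 and -1.49 for number 2. Read depth is not given, and no detection limit is known for an absent peak.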

Other observations

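Ribosomal protein pseudogenes, most of them retrocopies of the messages, served as a set with similar sequence and other positions. Of 302 pseudogenes with -ps names, 11 and 9 had a gene-end peak in KO and 12 and 12 in WT, and 6 (1.99%) had one in every library. None in any library was found at 283. Of the 203 that lie over 5 kb from any protein-coding gene, 188 had no such peak and 5 had one in every library. Among these, Rpl18-ps1 was at percentile 67.2 and 73.6 in KO and 69.9 and 68.9 in WT. Rpl38-ps1 was lower, at 44.7 and 35.5 in KO and 50.4 and 46.2 in WT. Rpl48-ps1 and Rps27a-ps1 were marked by peaks in WT libraries alone. Their WT percentiles were 83.5 and 84.6 for Rpl48-ps1 and 68.1 and 69.6 for Rps27a-ps1. Of all protein-coding genes, 1.65% likewise had gene-end peaks in WT-1 and WT-2 but none in KO-1 or KO-2. Whether this pattern was more or less frequent at pseudogenes was not tested. How reads from near-identical copies were placed was not given in the sources used here.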
